A study of Mus musculus with 24 samples.

Results

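The collagen gene family was followed through 24 RNA-seq libraries of mouse ileum and liver. Its members were taken as every row of both expression tables whose symbol has the form Col, a number, a and a number, which found 44 of 40481 genes: 11 fibrillar collagens, 8 basement membrane collagens (the 6 type IV chains, Col15a1 and Col18a1) and 25 others. All mice were C57BL/6 animals, were studied after a 75% small bowel resection and carried a loxP-flanked Abca1 gene (Abca1 fl/fl). They differed in whether they also carried Villin-Cre, a Cre recombinase driven in intestinal epithelium, and in treatment: vehicle (0.5% carboxymethyl cellulose) or GW3965, which activates the nuclear receptors LXR-alpha and LXR-beta, at 1 mg/kg per day by mouth on 2 days a week during the last 5 of 10 weeks from surgery. There were 8 groups, 4 in each tissue, with 3 libraries apiece: floxed vehicle, floxed GW3965, Villin-Cre vehicle and Villin-Cre GW3965. No unoperated mice are part of the comparisons. The Villin promoter drives Cre in intestinal epithelial cells, whereas collagens are made largely by mesenchymal and endothelial cells. Whether Cre was active in the liver was not tested. No label says whether libraries came from separate animals, so the spread behind each p-value may be only technical.

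Collagens are secreted proteins whose alpha chains wind into a helix of repeated glycine triplets. Fibrillar collagens (types I, III and V among them) assemble into the fibers that give tissue its tensile strength and accumulate in fibrosis. Type IV collagen forms the sheet-like network of basement membranes, while types XV and XVIII sit at the border between basement membrane and stroma, and a fragment of type XVIII is endostatin. Type VI forms beaded filaments around cells, types XII and XIV decorate the surface of fibrils, and type VII anchors epithelium to the stroma below. In the gut the main sources are fibroblasts and smooth muscle, and in the liver they are stellate cells, portal fibroblasts and sinusoidal endothelium, with type XVIII also made by hepatocytes.

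Levels are given as CPM, the reads of a gene scaled by all assigned reads of its library. Differences are log2 fold changes ± SE of CPM + 0.5, so that changes of low genes come out too small. A gene was called changed at an adjusted p below 0.05 in limma over all genes tested. Of the 44 members, 41 were tested in the ileum and 34 in the liver. Col2a1, Col9a1 and Col19a1 did not reach 0.5 CPM in 3 ileal libraries. In the liver Col2a1, Col6a4, Col9a1, Col9a2, Col11a1, Col19a1, Col22a1, Col25a1, Col26a1 and Col28a1 did not. Depth was 17.0 to 24.2 M (mega) assigned reads for ileal and 26.5 to 32.3 M for liver libraries. Abca1 itself stood at 54.2 to 59.9 CPM in floxed and 25.7 to 30.6 CPM in Villin-Cre ileum given vehicle, and at 251 to 438 CPM and 53.7 to 54.0 CPM with GW3965. In the liver it stood at 327 to 342 CPM (floxed) and 225 CPM (Villin-Cre) with vehicle, and at 464 to 479 and 377 to 382 CPM with GW3965. Most libraries of a group lay close together: the variance between 2 libraries was 2.64 to 3.32 times the Poisson variance of their reads in 9 ileal pairs of the same group and 2.58 to 3.44 times in 10 liver pairs, against 12.0 to 61.1 and 7.54 to 55.9 times between groups. Those pairs were picked as lying under 4 times. The remaining pairs of the same group were at 4.24 to 8.80 times (3 ileal) and 10.6 to 10.7 times (2 liver). The 2 liver pairs thus lay within the range between groups. Among counts of up to 10 reads, 69 to 73% were even in ileal and 67 to 70% in liver libraries. The recovered reads may thus not be independent, and these multiples may then overstate the spread. The cause was not tested. In each tissue a library stood well apart from its group, replicate 3 of floxed GW3965 in the ileum and replicate 1 of floxed GW3965 in the liver. Part of the results that rest on them are given with and without them. Counts are also given with close libraries averaged, which leaves a single unit in every group but floxed GW3965, so a low count there does not show that a difference is absent. The share of all genes called in that setting is not given. Those counts, adjusted or not, therefore do not say whether collagens stand out from the whole table. In these bulk libraries fewer cells of a type and less RNA per cell cannot be told apart.

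The sequences below are the 250 bases before the start site of 3 members, from RefSeq for GRCm38.p6, printed 5′ to 3′ on the gene's strand. Col1a2 and Col3a1 were chosen as fibrillar genes that fell together in the ileum, and Col6a5 because it rose where most members fell. Capitals mark the CCAAT box (CCAAT on either strand). Col1a2 lies at chr6:4505368-4505617, plus strand, Col3a1 at chr1:45311288-45311537, plus strand, and Col6a5 at chr9:105960644-105960893, minus strand.
Col1a2: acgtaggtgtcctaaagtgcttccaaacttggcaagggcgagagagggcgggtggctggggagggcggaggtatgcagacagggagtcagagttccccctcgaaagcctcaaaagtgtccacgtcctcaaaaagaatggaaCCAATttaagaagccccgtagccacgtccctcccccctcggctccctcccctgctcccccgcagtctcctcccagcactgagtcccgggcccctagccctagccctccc
Col3a1: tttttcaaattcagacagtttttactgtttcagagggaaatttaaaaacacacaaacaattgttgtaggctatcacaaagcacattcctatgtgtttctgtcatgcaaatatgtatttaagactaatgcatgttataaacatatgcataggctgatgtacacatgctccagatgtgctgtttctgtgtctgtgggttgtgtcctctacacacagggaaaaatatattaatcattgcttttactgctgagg
Col6a5: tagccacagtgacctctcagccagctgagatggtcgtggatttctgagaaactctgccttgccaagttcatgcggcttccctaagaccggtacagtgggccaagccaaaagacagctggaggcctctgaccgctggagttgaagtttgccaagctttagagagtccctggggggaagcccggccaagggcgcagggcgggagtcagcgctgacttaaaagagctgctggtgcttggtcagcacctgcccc

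The start sites of Col4a1 and Col4a2, on chromosome 8, are 21 bases apart on opposite strands, and their 300-base windows, which run 50 bases past each start, share 78 bases. G and C made up 62.0% of the printed bases for Col1a2, 35.2% for Col3a1 and 58.8% for Col6a5. Motifs were counted in windows from 250 bases before to 50 bases after the start. Windows were found for 35 of the 44 members. A CCAAT box was in the window of 13 of the 35 and in 37.4% of all 32851 windows. The GC box GGGCGG, on either strand, was in 22 of the 35 and in 35.7% of all windows. Col3a1 held neither motif. The LXR response element (a direct repeat spaced by 4 bases), searched on both strands, was in 5 windows in all (0.0152%) and in no member's, which says only that these letters are not in these windows.

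Col3a1 led the family in the ileum and Col18a1 in the liver. Levels of different genes were compared per kilobase of the longest coding transcript. In the ileum Col3a1, the chain of type III collagen, had the highest mean over the 12 libraries of all 4 groups, 57.2 CPM per kb with a range of 25.8 to 96.1. It was followed by the basement membrane chain Col4a1 at 40.6 (21.1 to 64.3), the filament chain Col6a1 at 33.1 (21.2 to 46.7), and Col1a1 and Col1a2, the chains of type I collagen, at 32.1 each (13.3 to 63.0 and 17.4 to 56.1). The ranges of neighbours in this order overlapped throughout. The order differed within groups: in Villin-Cre vehicle ileum Col1a1, at 60.5, stood above Col6a1, at 45.4, and in Villin-Cre GW3965 ileum Col6a1, at 22.4, stood above Col4a1, at 21.8. In the liver Col18a1 was at 240 CPM per kb (155 to 337), above every library's value of every other member. Next came Col4a1 at 43.5 (19.6 to 61.6), Col3a1 at 42.8 (21.6 to 60.7), Col4a2 at 26.3 (11.9 to 37.8) and Col1a1 at 23.6 (9.01 to 36.6), again with overlapping ranges. When lengths were taken as all annotated exons together, Col4a1 and Col3a1 changed places in the ileum, and Col18a1 kept its place in the liver. At the low end, Col6a4 was at 17.1 CPM per kb in the ileum and at 0.00790 in the liver. The basement membrane class, Col18a1 included, took 54.9 to 76.0% of all collagen reads in liver libraries, against 24.7 to 28.7% in ileal ones. Fibrillar genes made up 37.0 to 45.9% of ileal and 16.4 to 30.2% of liver collagen reads.

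**Figure D1:**
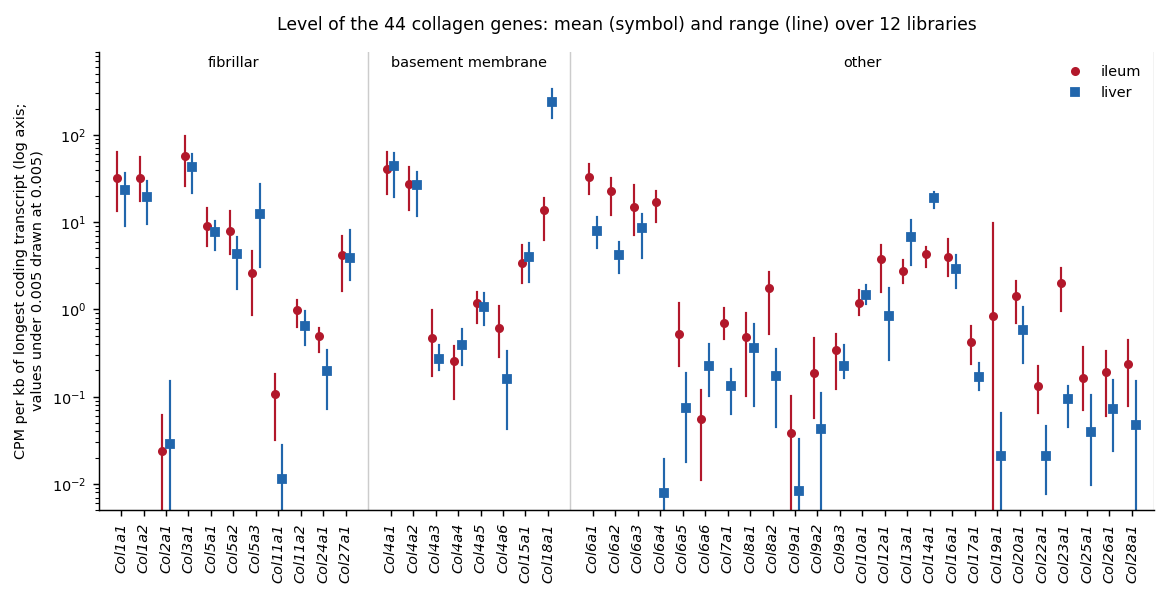
Level of each collagen gene in CPM per kb of its longest coding transcript (log axis), with the mean (symbol) and range (line) over the 12 libraries of ileum (circles) and liver (squares). Col18a1 in liver stands above all other members at 240 CPM per kb, and the ileal mean of Col19a1 comes from a library at 41.9 CPM.

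Among the genes too low to test, Col19a1, a fibril-associated collagen, was at 41.9 CPM in replicate 3 of Villin-Cre vehicle ileum. It was at 0 to 0.413 CPM in the other ileal libraries and at 0 to 0.279 CPM in the liver. Col9a1, a chain of cartilage type IX collagen, was at 0 in all Villin-Cre GW3965 ileal libraries and at no more than 0.395 CPM in any other.

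In floxed mice, collagen genes of all classes were lower in the ileum given GW3965. Of 41 members tested, 19 fell and 2 rose, against 20.9% of all tested genes that fell and 14.7% that rose. The median over members was -0.37, beside -0.08 over all genes. Col1a1, Col1a2, Col3a1, Col5a1, Col5a2, Col4a1 and Col4a2 were among those that fell, and the anchoring collagen Col7a1 and the fibril-associated Col20a1 rose. Without replicate 3 of floxed GW3965, 22 fell and 3 rose, against 21.7% and 17.7% of all genes. With close libraries averaged, no member was called by limma, and 13 passed an unadjusted p of 0.05, 12 of them lower.

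Among fibrillar collagens, 6 of 10 tested fell (Col1a1, Col1a2, Col3a1, Col5a1, Col5a2 and Col27a1) and none rose. Col3a1 was at 374, 367 and 371 CPM in floxed vehicle libraries and at 154, 143 and 303 CPM with GW3965. All GW3965 libraries lay below all vehicle libraries, with replicate 3 nearest to them. The log2 fold change was -0.98 ± 0.18 (adjusted p = 0.000345), and -1.32 without that replicate. Col1a1 was at 193, 186 and 207 CPM with vehicle and 79.1, 80.0 and 175 CPM with GW3965, a change of -0.91 ± 0.20 (adjusted p = 0.00151), or -1.29 without replicate 3. Its partner Col1a2 fell from 196, 187 and 197 CPM to 96.0, 96.6 and 151 CPM (-0.79 ± 0.12). Col5a1, a chain of the type V collagen that starts fibrils, went from 84.0, 83.9 and 90.7 CPM to 47.6, 47.1 and 68.1 CPM (-0.68 ± 0.10). Replicate 3 was the highest GW3965 library for each of these genes, and for each the groups did not overlap.

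**Figure D2:**
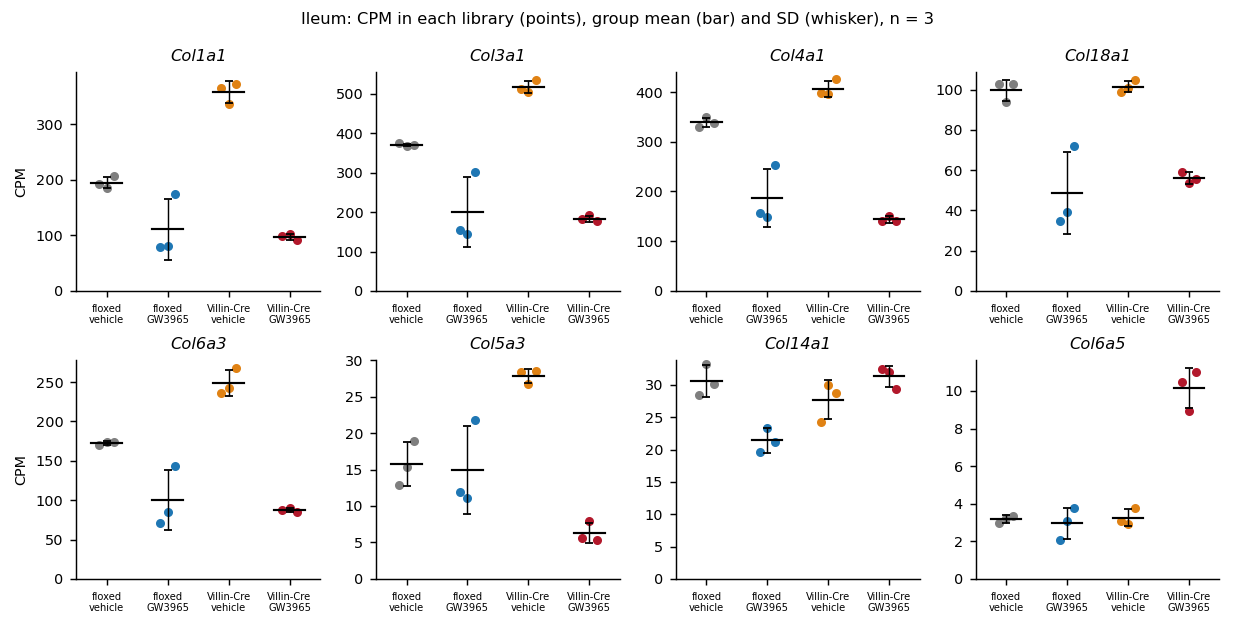
CPM of 8 collagen genes in each ileal library (points) with the group mean (bar) and SD (whisker), 3 libraries a group, each axis starting at 0. Libraries of Villin-Cre mice given vehicle are the highest for Col1a1 and Col3a1, replicate 3 of floxed GW3965 lies above the others of its group for Col1a1, Col3a1, Col4a1 and Col18a1, and Col6a5 is high only in the 3 Villin-Cre GW3965 libraries at 8.96 to 11.0 CPM.

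Of the 8 basement membrane collagens, 4 fell and none rose. Col4a1 was at 330, 349 and 338 CPM with vehicle and at 157, 148 and 253 CPM with GW3965 (-0.91 ± 0.13, adjusted p = 3.88e-05). Col4a2, its partner in the most widespread type IV trimer, went from 219, 218 and 234 CPM to 107, 101 and 171 CPM (-0.87 ± 0.13). Col18a1 stood at 103, 93.8 and 103 CPM with vehicle and at 34.7, 39.3 and 72.2 CPM with GW3965, with no overlap (-1.10 ± 0.17). The largest fall was that of Col4a3, a chain of the type IV trimer known from kidney and lung, from 6.42, 8.35 and 6.36 CPM to 2.68, 1.47 and 4.01 CPM (-1.30 ± 0.25, adjusted p = 0.0005). An antisense gene overlaps 563 exon bases of Col4a3, and no source used here states whether counting used strand, so its reads may be shared. Col15a1 was at 17.1, 18.1 and 18.4 CPM with vehicle and 10.5, 11.1 and 21.9 CPM with GW3965. The groups overlapped through replicate 3 and the difference did not pass (-0.37 ± 0.19, adjusted p = 0.156). Without that library it was -0.70 and passed (adjusted p = 9.55e-06).

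Among the 25 other collagens, 23 were tested, 9 fell and 2 rose. The type VI chains Col6a1, Col6a2 and Col6a3 fell, with log2 changes of -0.64 ± 0.12, -0.84 ± 0.16 and -0.85 ± 0.16. Col6a3 showed it library by library, at 170, 174 and 174 CPM with vehicle and 71.6, 85.5 and 144 CPM with GW3965. Col6a4, a type VI chain found in mouse, fell from 155, 167 and 158 CPM to 74.3, 82.0 and 116 CPM (-0.84 ± 0.11). The fibril-surface collagens Col12a1 (58.1, 59.9 and 58.0 against 30.7, 32.2 and 37.9 CPM) and Col14a1 (28.4, 33.2 and 30.2 against 19.7, 23.4 and 21.2 CPM) changed by -0.80 ± 0.09 and -0.51 ± 0.10, with no overlap. Col20a1 rose from 3.51, 4.47 and 4.31 CPM to 6.71, 6.39 and 7.80 CPM (0.70 ± 0.14, adjusted p = 0.00074), and Col7a1 from 5.19, 5.12 and 4.20 CPM to 7.15, 6.73 and 8.89 CPM (0.60 ± 0.17, adjusted p = 0.0105). No other member was called higher with all libraries in the fit.

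In Villin-Cre mice more members fell in the ileum with GW3965. Of the 41 tested, 31 fell and 3 rose, against 31.1% and 21.5% of all tested genes. The median over members was -0.98, beside -0.11 over all genes. All 10 tested fibrillar collagens fell, with a median of -1.46 and a range from -2.08 to -0.48, as did 7 of 8 basement membrane and 14 of 23 other collagens. With close libraries averaged, 10 members were called, all of them lower.

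Col1a1 was at 366, 336 and 373 CPM in Villin-Cre vehicle libraries and at 98.5, 102 and 91.5 CPM with GW3965, so that the groups were far apart (-1.87 ± 0.20, adjusted p = 3.96e-07). Col1a2 went from 280, 277 and 300 CPM to 93.6, 93.2 and 93.6 CPM (-1.61 ± 0.12). Col3a1 went from 513, 505 and 535 CPM to 182, 192 and 177 CPM (-1.49 ± 0.18), and Col5a1 from 116, 121 and 120 CPM to 46.4, 44.5 and 45.3 CPM (-1.38 ± 0.10). The largest fall was that of Col5a3, the less common type V chain, at 28.4, 26.7 and 28.5 CPM with vehicle and 5.67, 7.92 and 5.31 CPM with GW3965 (-2.08 ± 0.21, adjusted p = 2.22e-07). In floxed mice Col5a3 had been at 12.9, 15.4 and 18.9 CPM with vehicle and 12.0, 11.0 and 21.8 CPM with GW3965, groups that overlapped (-0.12 ± 0.21, adjusted p = 0.693), although without replicate 3 it was -0.42 (adjusted p = 0.0211).

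Of the basement membrane genes, Col4a1 went from 397, 396 and 426 CPM to 141, 152 and 140 CPM (-1.49 ± 0.13, adjusted p = 4.9e-08) and Col4a2 from 273, 259 and 277 CPM to 91.4, 88.8 and 92.6 CPM (-1.56 ± 0.13). Col18a1 went from 99.0, 101 and 105 CPM to 59.2, 53.7 and 55.4 CPM (-0.85 ± 0.17), and Col15a1 from 24.2, 22.8 and 28.1 CPM to 13.7, 11.6 and 11.3 CPM (-1.01 ± 0.19). Col4a3 did not pass here, at 3.39, 2.92 and 3.18 CPM with vehicle and 3.73, 2.81 and 2.84 CPM with GW3965 (-0.02 ± 0.25, adjusted p = 0.948), and its sign turned under both rescalings of the libraries.

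Among the others, Col6a1, Col6a2 and Col6a3 changed by -1.02 ± 0.12, -1.13 ± 0.16 and -1.51 ± 0.16. Col6a3 was at 237, 242 and 268 CPM with vehicle and 87.3, 89.6 and 84.6 CPM with GW3965. Col12a1 fell from 62.9, 59.5 and 61.9 CPM to 22.7, 21.5 and 18.3 CPM (-1.54 ± 0.09), whereas Col14a1, at 24.3, 30.0 and 28.8 CPM with vehicle and 32.5, 32.0 and 29.4 CPM with GW3965, overlapped and did not pass (0.18 ± 0.10, adjusted p = 0.132). Col6a5, a type VI chain known from skin and gut, rose from 3.08, 2.92 and 3.77 CPM to 10.5, 8.96 and 11.0 CPM (1.50 ± 0.19, adjusted p = 3.82e-06). Col20a1 rose from 6.53, 7.48 and 6.89 CPM to 10.7, 10.7 and 10.3 CPM (0.57 ± 0.14) and Col7a1 from 5.29, 5.08 and 6.24 CPM to 7.93, 9.49 and 6.35 CPM (0.47 ± 0.17, adjusted p = 0.0273), the groups again not overlapping.

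**Figure D3:**
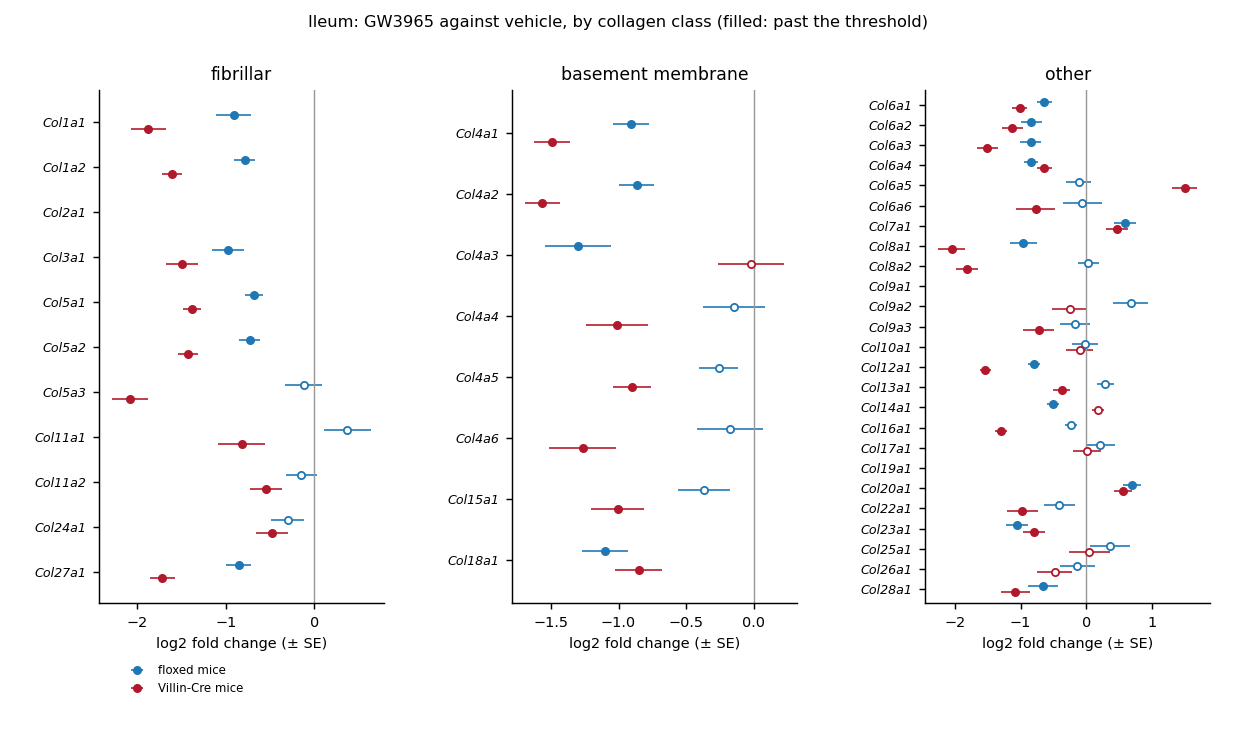
Log2 fold change ± SE of GW3965 against vehicle in the ileum of floxed and Villin-Cre mice for every tested collagen gene, by class, with filled circles past the threshold; each panel has its own x axis. Fibrillar genes lie left of 0 in Villin-Cre mice, and Col6a5, at 1.50 in Villin-Cre mice and -0.12 in floxed mice, lies farthest to the right.

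Whether the GW3965 effect differed between genotypes was tested as an interaction, the effect in Villin-Cre minus that in floxed ileum. It passed for 17 members in the direction of a more negative effect in Villin-Cre mice, against 18.4% of all genes, and for 3 in the other direction, against 14.6%. The 17 held 7 of 10 fibrillar collagens, led by Col5a3 (-1.96 ± 0.29, adjusted p = 6.74e-05). Col1a1 and Col1a2 were among them (-0.96 ± 0.28 and -0.82 ± 0.17), as were Col4a1 and Col4a2 (-0.58 ± 0.19 and -0.70 ± 0.18) and Col12a1 (-0.74 ± 0.12). Col3a1 was not (-0.52 ± 0.25, adjusted p = 0.126). Without replicate 3 of floxed GW3965 the difference was smaller, -0.59 for Col1a1, -0.34 for Col4a1, -0.46 for Col4a2 and -0.18 for Col3a1, which then passed (adjusted p = 0.0243), and -0.37 for Col6a3, which was at -0.66 with it. The calls were then 17 and 6, against 22.2% and 16.7% of all genes, and the 6 included Col18a1 (0.57, adjusted p = 4.26e-06) and Col6a4 (0.39, adjusted p = 0.000165). The 3 in the other direction were Col6a5 (1.62 ± 0.27, adjusted p = 0.000179), Col4a3 (1.28 ± 0.35) and Col14a1 (0.68 ± 0.14). None passed in limma when close libraries were averaged, and 6 passed an unadjusted p of 0.05.

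With vehicle alone, fibrillar collagens were higher in Villin-Cre than in floxed ileum. In the vehicle groups 9 members were higher and 1 lower, against 9.61% and 30.7% of all genes. Of the 9, 6 were fibrillar (Col1a1, Col1a2, Col3a1, Col5a1, Col5a2 and Col5a3), and the others were Col6a3, Col16a1 and Col20a1. Of the higher genes Col1a1 differed most, 366, 336 and 373 CPM against 193, 186 and 207 CPM (0.88 ± 0.20, adjusted p = 0.00181). Col3a1 was higher by 0.48 ± 0.18, Col1a2 by 0.56 ± 0.12 and Col5a1 by 0.47 ± 0.10. The lower gene was Col4a3, 3.39, 2.92 and 3.18 CPM against 6.42, 8.35 and 6.36 CPM (-1.03 ± 0.25, adjusted p = 0.00283). No basement membrane gene passed in the higher direction; Col4a1 was at 0.26 ± 0.13 and Col4a2 at 0.27 ± 0.13, both without overlap. Without replicate 3 of floxed GW3965, whose group is not compared here but lends its spread, both passed (adjusted p = 1.08e-05 and 1.33e-05), as did Col15a1 (0.47, adjusted p = 0.00034), and 16 members were higher and 1 lower, against 11.9% and 35.1% of all genes. The median of all genes in this comparison was -0.18, and scaling on median gene ratios moved it to 0.04 and the calls to 20 higher and 1 lower, against 20.1% and 14.6% of all genes. Averaging close libraries left none past the threshold in limma, and 1 passed an unadjusted p of 0.05.

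Markers of other cell types moved with these ileal differences, and their part in the collagen values was not tested. Over all genes tested, 20.9% fell and 14.7% rose with GW3965 in floxed ileum, and 31.1% and 21.5% did in Villin-Cre ileum. Between the vehicle groups 9.61% were higher and 30.7% lower in Villin-Cre mice. All 10 smooth muscle markers (Acta2, Myh11 and others) fell with GW3965 in both genotypes, with medians of -1.06 and -2.66. Their summed level was 7646 to 7655 CPM in floxed vehicle, 3173 to 4748 in floxed GW3965, 8212 to 8473 in Villin-Cre vehicle and 1311 to 1334 in Villin-Cre GW3965 libraries. In the vehicle groups none of the 10 passed, but other lists did: in Villin-Cre mice 8 of 9 enterocyte, 2 of 7 fibroblast (Pdgfra and Dpt) and 3 of 7 enteric glia and neuron markers were higher, and 5 of 7 macrophage, 4 of 7 endothelial and 3 of 5 adipocyte markers were lower. Of the adipocyte markers, 1 (Lep) was higher. Of 7 fibroblast markers, 5 fell in floxed mice, and in Villin-Cre mice 6 fell and 1 rose. In the same group order their sums were 255 to 264, 196 to 207, 278 to 291 and 163 to 170 CPM. All 9 absorptive enterocyte markers rose with GW3965 in both genotypes, their sums going from 11450 to 11650 up to 18850 to 19610 CPM in floxed and from 15430 to 15790 up to 30270 to 30830 CPM in Villin-Cre mice. Of 7 macrophage markers, 7 fell in floxed and 6 in Villin-Cre mice, with sums of 241 to 254, 102 to 121, 179 to 192 and 126 to 128 CPM in the 4 groups. No marker of these 4 lists was at 0 in any ileal library. With GW3965 in floxed and Villin-Cre mice, 5 and 1 of 7 endothelial markers fell and 1 and 2 rose, 0 and 5 of 7 enteric glia and neuron markers fell and 1 rose in each, 0 and 3 of 5 mesothelial markers fell, and 5 and 3 of 5 adipocyte markers rose. The predicted gene Gm26917 took 10.4 to 11.6%, 6.56 to 7.91%, 11.5 to 12.2% and 3.92 to 4.20% of all reads in the 4 groups.

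Genes that process, bind or break down collagen were counted from lists chosen for the pathway. Over all genes tested, 20.9% fell and 14.7% rose in floxed ileum and 31.1% and 21.5% did in Villin-Cre ileum. Of 18 genes for chain modification and folding, 5 fell and 1 rose in floxed ileum given GW3965, and 13 fell and 3 rose in Villin-Cre ileum. Serpinh1, the collagen chaperone of the endoplasmic reticulum, fell in both (-0.52 ± 0.12 and -1.31 ± 0.12). P4hb, a subunit of prolyl hydroxylase and a general disulfide isomerase, fell in floxed (-0.35 ± 0.05) and rose in Villin-Cre mice (0.86 ± 0.05). Of 12 tested genes for propeptide removal and cross-linking, 4 fell and 1 rose in floxed and 9 fell and 1 rose in Villin-Cre mice. The riser was Bmp1, the procollagen C-proteinase, at 19.8 ± 0.55 CPM (SD, n = 3) in floxed vehicle and 72.3 ± 2.60 in floxed GW3965 libraries (1.85 ± 0.07), and up by 1.04 ± 0.07 in Villin-Cre mice. Loxl1, a lysyl oxidase that cross-links elastin and collagen, changed by -2.35 ± 0.14 in Villin-Cre mice. Of 7 collagen-degrading proteinases tested, 3 fell in floxed mice, and 4 fell and 1 rose in Villin-Cre mice. Mmp14 changed by -0.69 ± 0.12 and -1.21 ± 0.12, and Mmp2 by -0.56 ± 0.11 and -0.99 ± 0.11.

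Of the 4 metalloproteinase inhibitors, 2 fell in each genotype and 1 rose in floxed mice. Timp2 changed by -0.39 ± 0.08 in floxed and -1.87 ± 0.08 in Villin-Cre mice, and Timp3 by -0.41 ± 0.12 and -1.63 ± 0.12. Of 8 collagen receptors tested, 5 fell and 1 rose in floxed, and 6 fell and 1 rose in Villin-Cre mice. The integrin chain Itga1 changed by -0.36 ± 0.08 and -1.72 ± 0.08 and the discoidin receptor Ddr2 by -0.46 ± 0.09 and -1.54 ± 0.09. Of 11 genes of TGF-beta signalling, the main inducer of collagen transcription, 2 fell and 4 rose in floxed, and 6 fell and 4 rose in Villin-Cre mice. Ltbp1, which stores latent TGF-beta in the matrix, changed by -0.92 ± 0.09 and -1.38 ± 0.09, while Smad7, an inhibitor of the pathway, changed by 0.70 ± 0.06 and 0.39 ± 0.06.

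In the liver of floxed mice given GW3965, Col1a1, Col1a2, Col3a1, Col5a2, Col4a1 and Col4a2 were lower and Col18a1 and Col5a3 were higher. Of 34 members tested, 13 fell and 4 rose, against 19.7% and 10.4% of all tested genes, with a median of -0.15 beside -0.04 over all genes. Without replicate 1 of floxed GW3965, the library that stood apart, 17 fell and 7 rose, against 23.3% and 15.6% of all genes. Of 9 tested fibrillar collagens 4 fell and 2 rose, with a median of 0.14, and of 8 basement membrane collagens 4 fell and 1 rose. After averaging of close libraries limma called none, and 7 passed an unadjusted p of 0.05. Col4a1 went from 223, 232 and 225 CPM to 129, 131 and 149 CPM (-0.73 ± 0.05, adjusted p = 2.46e-07) and Col4a2 from 127, 133 and 133 CPM to 76.6, 82.1 and 86.9 CPM (-0.67 ± 0.05). Col3a1 fell from 187, 192 and 182 CPM to 137, 120 and 130 CPM (-0.54 ± 0.05), and Col1a1 from 83.2, 86.4 and 87.7 CPM to 74.8, 53.4 and 54.9 CPM (-0.51 ± 0.10, and -0.66 without replicate 1). Col1a2 changed by -0.47 ± 0.06, Col15a1 by -0.57 ± 0.09, Col14a1 by -0.37 ± 0.05, Col6a3 by -0.61 ± 0.09 and Col6a1 by -0.23 ± 0.07. The largest fall was in Col8a1, a short-chain collagen, from 1.67, 1.48 and 1.57 CPM to 0.869, 0.568 and 0.397 CPM (-0.92 ± 0.22).

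The 4 that rose were Col5a3, Col18a1, Col20a1 and the fibrillar Col27a1. Col5a3 went from 98.5, 97.0 and 96.6 CPM to 166, 128 and 136 CPM (0.54 ± 0.08, adjusted p = 8.81e-05, and 0.43 without replicate 1, its highest library). Col18a1 went from 1550, 1618 and 1616 CPM to 1789, 1857 and 1885 CPM (0.21 ± 0.05, adjusted p = 0.00366). Col27a1 was at 28.8, 29.9 and 28.4 CPM with vehicle and 61.3, 35.3 and 37.4 CPM with GW3965, replicate 1 being the highest (0.57 ± 0.16, and 0.32 without it, adjusted p = 0.00277). Col20a1 was at 2.25, 2.36 and 1.67 CPM and at 3.82, 3.76 and 5.39 CPM (0.89 ± 0.18). None of these groups overlapped.

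**Figure D4:**
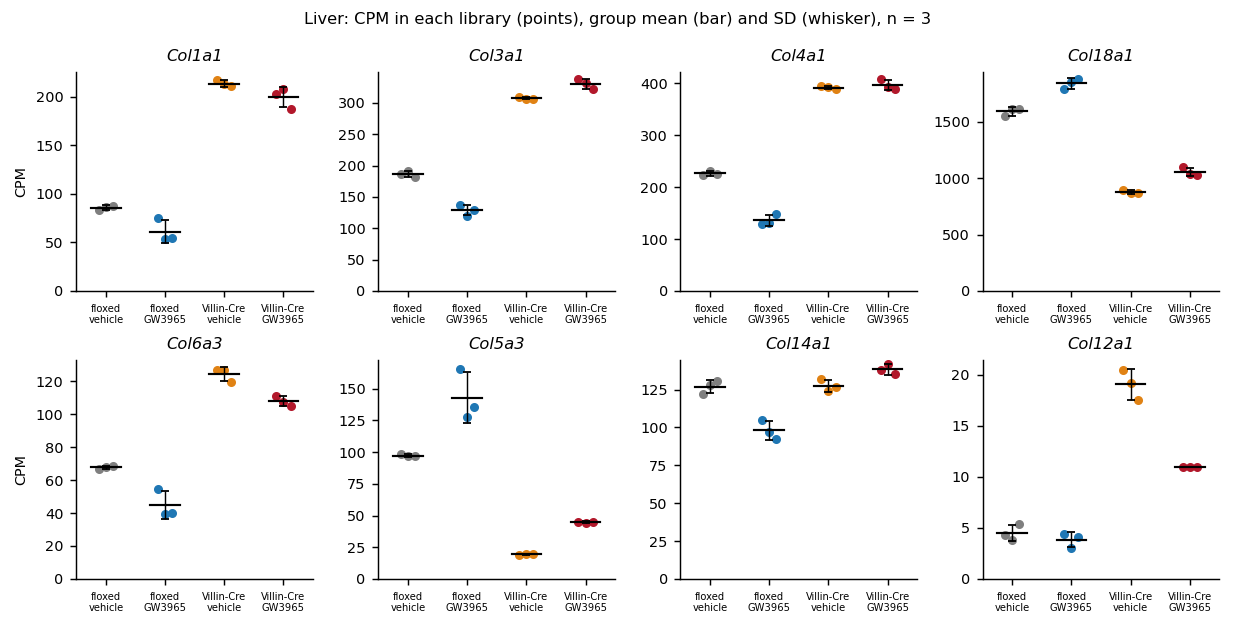
CPM of 8 collagen genes in each liver library (points) with the group mean (bar) and SD (whisker), 3 libraries a group, each axis starting at 0. Col1a1, Col3a1, Col4a1 and Col6a3 are higher in all Villin-Cre than in all floxed libraries, while Col18a1 and Col5a3 are lower in all of them.

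In the liver of Villin-Cre mice fewer members passed with GW3965 than in floxed mice in the main fit. Fewer of all genes passed as well (11.9% against 30.1%), and the count of members was larger with only the groups compared. Of 34 tested, 6 fell and 3 rose, against 9.03% and 2.85% of all genes, with a median of -0.14 beside -0.08. Rescaling by TMM factors or by the median of gene ratios gave 4 lower and 5 higher, against 3.57 to 3.7% and 4.93 to 5.32% of all genes. Leaving out replicate 1 of floxed GW3965, a group not compared here, gave 12 lower and 6 higher, against 20.0% and 6.63%, and close libraries averaged gave none in limma and 4 at an unadjusted p of 0.05. Col5a3 rose again, from 18.9, 19.5 and 19.5 CPM to 45.0, 43.8 and 45.2 CPM (1.19 ± 0.08, adjusted p = 5.79e-07), and Col18a1 from 898, 867 and 873 CPM to 1099, 1042 and 1029 CPM (0.26 ± 0.05). Col6a6, a low type VI chain, rose from 1.39, 1.28 and 0.892 CPM to 3.54, 2.69 and 2.34 CPM (0.99 ± 0.21, adjusted p = 0.00829). The 6 that fell were Col4a5, Col4a6, Col6a1, Col12a1, Col13a1 and Col20a1. Of these, the chain Col4a6 fell most, from 1.92, 2.10 and 2.21 CPM to 0.885, 0.804 and 0.504 CPM (-1.08 ± 0.21), and Col12a1 fell from 20.5, 19.2 and 17.5 CPM to 10.9, 11.0 and 11.0 CPM (-0.77 ± 0.14). The abundant Col1a1 (-0.10 ± 0.10), Col3a1 (0.10 ± 0.05) and Col4a1 (0.02 ± 0.05) did not pass. Without that library Col1a1 and Col3a1 passed at the same sizes (adjusted p = 0.0432 and 0.0123), in opposite directions.

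The interaction in the liver passed for 12 members with a more positive and 2 with a more negative effect in Villin-Cre mice, against 10.2% and 9.7% of all genes. The 12 included Col4a1 (0.75 ± 0.07, adjusted p = 1.08e-05), Col3a1 (0.64 ± 0.07), Col4a2 (0.60 ± 0.07), Col5a3 (0.64 ± 0.11), Col14a1 (0.49 ± 0.07), Col6a6 (1.77 ± 0.30), Col1a1 (0.40 ± 0.13) and Col1a2 (0.34 ± 0.08). The 2 were Col20a1 (-1.86 ± 0.25), which had risen in floxed and fallen in Villin-Cre mice, and Col27a1 (-0.79 ± 0.23). Without replicate 1 of floxed GW3965 the counts were 12 and 4, against 15.1% and 17.5% of all genes. Leaving out replicate 1 of floxed vehicle gave 9 in all, a setting for which the share of all genes is not given. No member passed in limma once close libraries were averaged, and 3 passed an unadjusted p of 0.05.

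In the liver 20 of 34 tested members were higher and 3 lower in Villin-Cre than in floxed mice given vehicle, against 45.1% and 11.7% of all genes. The median was 0.65, beside 0.26 over all genes. Rescaled by TMM factors or by the median of gene ratios, 16 were higher and 6 lower, against 21.6 to 21.9% and 22.0 to 22.2% of all genes. With close libraries averaged 1 member passed in limma, in the lower direction, and 14 passed an unadjusted p of 0.05. Col1a1 was at 217, 213 and 211 CPM in Villin-Cre and 83.2, 86.4 and 87.7 CPM in floxed libraries (1.31 ± 0.10, adjusted p = 4.26e-08), and Col1a2 at 159, 150 and 149 CPM against 73.4, 76.0 and 71.6 CPM (1.05 ± 0.06). Col3a1 was higher by 0.72 ± 0.05, Col4a1 by 0.79 ± 0.05, Col4a2 by 0.87 ± 0.05, Col6a3 by 0.87 ± 0.09 and Col5a1 by 0.90 ± 0.07. Col6a1, Col6a2, Col15a1 and Col16a1 were higher by 0.79 ± 0.07, 0.77 ± 0.13, 0.64 ± 0.09 and 0.85 ± 0.11. Of the higher genes Col12a1 differed most, 20.5, 19.2 and 17.5 CPM against 4.34, 3.81 and 5.38 CPM (1.98 ± 0.14). The transmembrane collagen Col13a1 was at 31.4, 33.3 and 32.3 CPM against 13.8, 14.9 and 15.5 CPM (1.11 ± 0.11). Col14a1, at 132, 124 and 127 CPM against 122, 128 and 131 CPM, overlapped (0.01 ± 0.05), but was lower and past the threshold under both rescalings (-0.28).

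The 3 lower genes were Col5a3, Col18a1 and Col6a6. Col5a3 was at 18.9, 19.5 and 19.5 CPM in Villin-Cre against 98.5, 97.0 and 96.6 CPM in floxed liver, the largest difference of any tested member here (-2.30 ± 0.08, adjusted p = 1.74e-11). In the ileum of the same groups Col5a3 was higher in Villin-Cre mice (0.82 ± 0.21, adjusted p = 0.00445). Col18a1 was at 898, 867 and 873 CPM against 1550, 1618 and 1616 CPM (-0.86 ± 0.05). The summed level of all 44 genes, Col18a1 included, was 2745 to 2841 CPM in floxed vehicle liver, 2755 to 2835 in floxed GW3965, 2791 to 2856 in Villin-Cre vehicle and 2886 to 3031 in Villin-Cre GW3965 libraries. The sum of the fibrillar genes alone was 537 to 542, 451 to 568, 839 to 854 and 833 to 883 CPM. In the ileum the sum of all 44 was 2444 to 2511, 1194 to 1991, 3116 to 3363 and 1236 to 1281 CPM.

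**Figure D5:**
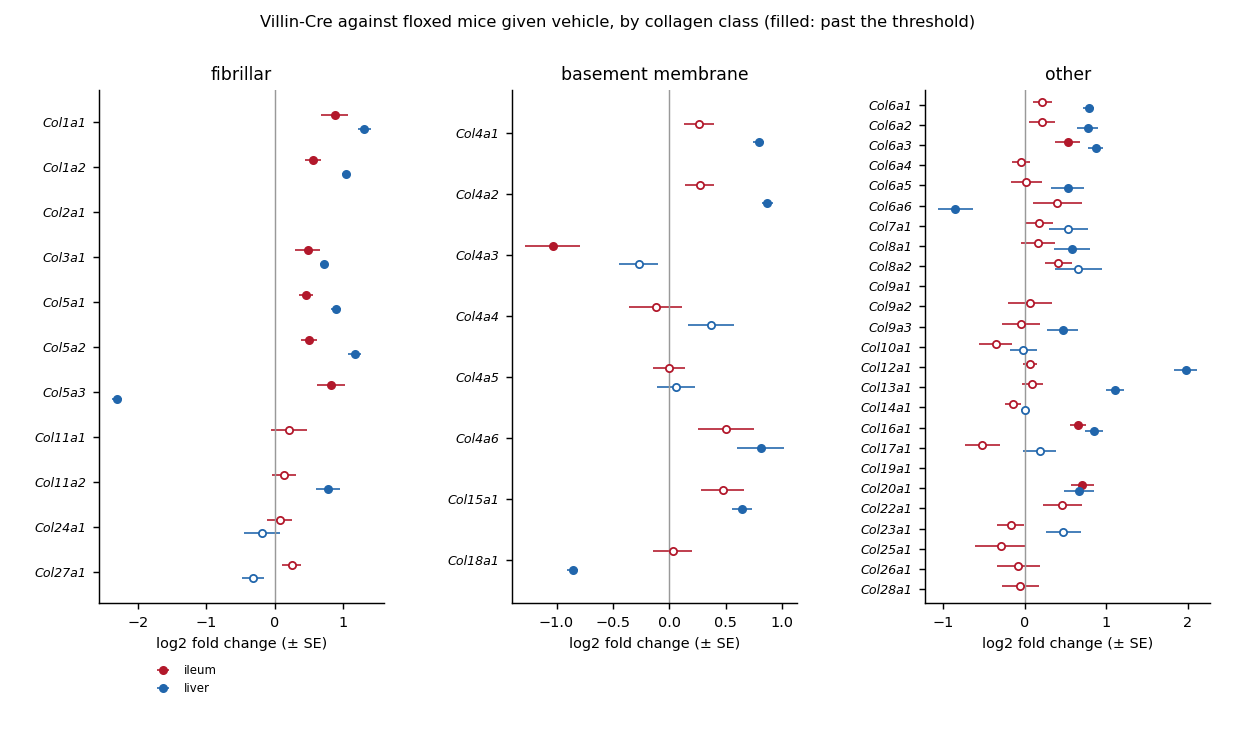
Log2 fold change ± SE of Villin-Cre against floxed mice given vehicle, in ileum and liver, for every tested collagen gene by class, with filled circles past the threshold; each panel has its own x axis. Most liver values lie right of 0, Col5a3 lies at -2.30 in liver and 0.82 in ileum, and Col18a1 at -0.86 in liver and 0.03 in ileum.

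Markers of liver cell types also differed between the vehicle groups, and their part in the collagen values was not tested. Over all genes tested, 45.1% were higher and 11.7% lower in Villin-Cre mice. Of 7 stellate cell markers 6 were higher and 1 lower in Villin-Cre mice, with sums of 543 to 563, 467 to 537, 783 to 788 and 599 to 615 CPM in floxed vehicle, floxed GW3965, Villin-Cre vehicle and Villin-Cre GW3965 libraries. Of 6 tested fibroblast markers 4 were higher, with sums of 197 to 205, 138 to 148, 367 to 376 and 228 to 232 CPM. All 7 macrophage markers were higher (sums of 544 to 549, 365 to 516, 1053 to 1075 and 750 to 770 CPM). Of 8 hepatocyte markers 6 were lower and 1 higher (sums of 79020 to 81330, 56390 to 67870, 55380 to 55860 and 58400 to 60380 CPM). Of 7 endothelial markers 3 were higher, a share near that of all genes, and 1 lower. Their sums were 307 to 320, 171 to 225, 331 to 337 and 323 to 340 CPM. With GW3965 in floxed mice 6 of them fell, against 19.7% of all genes. In that comparison 4 of 7 macrophage, 3 of 6 tested fibroblast and 3 of 5 mesothelial markers also fell and none rose. Of 7 stellate markers 4 fell and 1 rose, and of 8 hepatocyte markers 2 fell and 2 rose. Smooth muscle markers, 9 tested, had 2 that fell and 1 that rose. Among pathway genes, 9 of 11 for TGF-beta signalling and 3 of 3 metalloproteinase inhibitors fell and none rose. In the vehicle comparison 6 of 9 tested smooth muscle markers (Acta2, Tagln and Des among them) and 3 of 5 mesothelial markers were higher and none lower. No stellate, macrophage, hepatocyte or endothelial marker was at 0 in any liver library; of the fibroblast markers Mfap5 was. In the same vehicle comparison, set against 45.1% (higher) and 11.7% (lower) over the whole table, 14 of 17 tested genes for chain modification and folding were higher and none lower, as were 8 of 8 collagen-degrading proteinases, 3 of 3 metalloproteinase inhibitors, 7 of 8 receptors and 10 of 11 genes of TGF-beta signalling, while 9 of 11 genes for propeptide removal and cross-linking were higher and 1 lower. Serpinh1 was higher by 0.58 ± 0.07, Mmp14 by 0.72 ± 0.06, Timp3 by 0.71 ± 0.06, Loxl1 by 1.24 ± 0.17 and Ltbp1 by 0.88 ± 0.09.

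The GW3965 effect was set between tissues as the ileal minus the liver effect, over genes tested in both. In floxed mice 9 members had the more negative effect in the ileum and 1 (Col13a1) in the liver, against 14.0% and 15.2% of all genes. Col18a1 fell in the ileum and rose in the liver, a difference of -1.31 ± 0.20 (adjusted p = 1.69e-05), and Col27a1 did so too (-1.42 ± 0.23). Without replicate 3 of floxed GW3965 ileum the counts were 18 and 1, against 13.8% and 17.1% of all genes, and Col6a1 moved from -0.41 to -0.61. In Villin-Cre mice 19 had the more negative effect in the ileum and 3 (Col6a5, Col7a1 and Col20a1) in the liver, against 22.1% and 20.7%. Col5a3 differed most (-3.27 ± 0.24, adjusted p = 9.71e-11). The difference was also negative for the abundant Col1a1 (-1.77 ± 0.25), Col3a1 (-1.60 ± 0.21), Col4a1 (-1.51 ± 0.16) and Col4a2 (-1.49 ± 0.16). With close libraries averaged none passed in limma in either genotype, and 2 and 14 passed an unadjusted p of 0.05.

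Chains that share a trimer or a locus were compared within each library, where a common scaling cancels. The ratio of Col4a1 to Col4a2, per length, was 1.41 to 1.67 over the ileal and 1.55 to 1.74 over the liver libraries, beside ranges of 21.1 to 64.3 and 13.8 to 43.0 CPM per kb in the ileum. The ratio of Col1a1 to Col1a2 was 0.889 to 0.946 in floxed vehicle and 1.09 to 1.18 in Villin-Cre vehicle ileum, 0.743 to 1.04 and 0.882 to 0.991 with GW3965. In the liver it was 1.02 to 1.10 and 1.23 to 1.28 with vehicle, and 0.938 to 1.19 and 1.25 to 1.33 with GW3965. Its absolute size depends on the length used, since with all annotated exons the group means were 1.77 to 2.71. The ratio of Col3a1 to Col1a1 was 1.91 to 2.11 in floxed vehicle and 1.49 to 1.60 in Villin-Cre vehicle ileum, and 2.21 to 2.40 against 1.52 to 1.55 in the liver. The paired type IV genes of chromosome 1 did not keep a ratio. Col4a3 to Col4a4, whose start sites are 72 bases apart, was 2.27 to 2.89 in floxed vehicle, 0.808 to 1.22 in floxed GW3965, 0.909 to 1.53 in Villin-Cre vehicle and 2.67 to 3.49 in Villin-Cre GW3965 ileum, on levels of 0.949 to 8.35 CPM.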

How the data were processed

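RNA from ileum and liver of 24 mouse samples was sequenced, 12 libraries per tissue in 4 groups of 3, and a table per tissue was deposited. Reads were aligned with STAR 2.5.1a and counted with featureCounts 1.4.6-p5 (Subread) on GRCm38, with bcl2fastq also listed, per the submitters' processing notes. The sources used here do not state the annotation release, the strand setting or the log formula. The deposited values are log2 values. From the values, they are log2 of CPM (reads of a gene scaled by the library total) plus a small constant, whose lowest value of -5.622 in every library stands for 0 reads. Taking that constant off gave CPM and whole reads, with 100% of low values within 0.05 reads of a whole number. Among 40757 entries a table, 276 repeats were dropped, which left 40481 genes.

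limma 3.58.1 in R 4.3.3 was fitted to log2(CPM + 0.5) in each tissue's 12 libraries, with group means as the only terms, empirical Bayes with trend and Benjamini-Hochberg adjustment over all genes with at least 0.5 CPM in 3 libraries (18656 in the ileum, 17520 in the liver, 16322 in both, the last used in a joint fit for the tissue contrast). The fit was tested on simulated data. The replicate numbers were not used as pairs. Within a tissue, deviations of libraries with the same number in different groups correlated at -0.04 to 0.055 (ileum) and -0.026 to 0.031 (liver) over 18 pairs each. Whether ileal and liver libraries with the same number came from the same mouse was not checked. The joint fit treated the libraries of the 2 tissues as independent. Close libraries were those of a group whose variance was under 4 times the Poisson variance, and libraries linked through a common close library were averaged together: replicates 2 and 3 of floxed vehicle ileum, at 4.24 times, were joined through replicate 1. Levels between genes used the longest coding transcript of GENCODE vM21.

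Genes were named by mean level within each class (4 fibrillar, 4 basement membrane and 6 other per tissue), by the largest called rise and fall of each comparison, and where a called member went against its class. Members, gene lists and this rule were chosen with earlier results of these data known. Alternatives were TMM and median scaling, totals without Gm26917, no filter, a pseudocount of 2 CPM, voom on recovered reads, the log2 values as deposited, the replicate block, only the groups compared, leaving out each library, and averaging close libraries.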

Additional observations from a re-analysis of the deposited data

Results flagged for a closer look

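In the ileum the GW3965 effect differed between the genotypes, by the interaction term in limma, for 20 of 41 collagen genes (48.8%), beside 33.0% of all genes tested. The difference, Villin-Cre minus floxed on the log2 scale, was -0.74 for Col12a1, 0.68 for Col14a1, -0.96 for Col1a1, -0.82 for Col1a2, -0.58 for Col4a1 and -0.70 for Col4a2. It was 1.28 for Col4a3, -0.70 for Col5a1, -1.96 for Col5a3, -0.66 for Col6a3 and 1.62 for Col6a5. Without replicate 3 of floxed GW3965 it was -0.59 for Col1a1 and -0.37 for Col6a3.

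In the liver it differed for 14 of 34 (41.2%), beside 19.9% of all genes. Among them the same difference was 0.49 for Col14a1, 0.43 for Col15a1, 0.40 for Col1a1, 0.34 for Col1a2, -1.86 for Col20a1, -0.79 for Col27a1 and 0.64 for Col3a1. It was 0.75 for Col4a1, 0.60 for Col4a2, 0.64 for Col5a3, 0.41 for Col6a3, 1.77 for Col6a6 and 0.92 for Col8a1.

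Between tissues, the ileal effect minus the liver effect passed for 10 of 34 collagen genes in floxed mice (29.4%), a share near the 29.1% of all genes, at -1.31 for Col18a1, -0.41 for Col6a1 and -0.76 for Col6a2. In Villin-Cre mice it passed for 22 (64.7%), beside 42.8% of all genes, at -0.87 for Col15a1, -1.12 for Col18a1, -1.77 for Col1a1, -1.47 for Col1a2, -1.60 for Col3a1 and -1.51 for Col4a1. It was -1.49 for Col4a2, -0.64 for Col6a1, -0.87 for Col6a2 and -1.30 for Col6a3. All of these comparisons were tested in the fit over all genes.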

How the results depend on the processing

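No named member that was called changed reversed its direction in any setting run (direction was followed for named members only). Values of named members kept direction and side of the threshold in 1458 of 1541 comparisons over the settings other than leaving out or averaging libraries, and in 2243 of 2400 that left out a library. With close libraries averaged, calls numbered 0 and 10 for GW3965 in floxed and Villin-Cre ileum, 0 for genotype and 0 for the interaction there, 0, 0, 1 and 0 in the liver in the same order, and 0 and 0 between tissues; this setting has fewer units per group. The genotype count in vehicle ileum was 21 with median scaling and 18 with TMM, beside 34.8% and 34.5% of all genes called, and 40.3% in the main fit. Of all genes, 9.61% were called higher in the main fit, 20.1% with median scaling and 17.1% with TMM. With only the groups compared, that count was 17, and the liver count for GW3965 in Villin-Cre mice was 17. The share of all genes is not given for that setting, and the cause was not tested. Leaving out each library gave 20 to 25, 28 to 34, 8 to 17 and 17 to 24 calls in the ileum, 14 to 24, 7 to 18, 20 to 26 and 9 to 16 in the liver, and 8 to 19 and 21 to 22 between tissues. The replicate block, from numbers that did not pair libraries within a tissue, gave 21, 34, 11 and 21 calls in the ileum, 18, 8, 21 and 13 in the liver, and 10 and 22 between tissues. The share of all genes is not given for the replicate block or for most of the libraries left out.

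Members not called turned sign as follows, and the cause was not tested. Under median and TMM scaling these were Col4a3 (0.079 and 0.05, GW3965, Villin-Cre ileum), Col14a1 (0.101 and 0.049) and Col6a4 (0.202 and 0.15) for genotype in ileum, Col4a2 (0.026 and 0.017, GW3965, Villin-Cre liver) and Col14a1 (-0.28 and -0.277, genotype in liver). With close libraries averaged they were Col5a3 in floxed ileum (0.028) and Col6a2 in floxed liver (0.021) for GW3965. With totals without Gm26917 they were Col8a1 (-0.001, GW3965, Villin-Cre liver) and Col14a1 (-0.051, tissues, Villin-Cre). Leaving out each library gave ranges across 0 for GW3965 in the ileum for Col5a3 (-0.421 to 0.056) and Col6a5 (-0.279 to 0.077) in floxed and Col4a3 (-0.138 to 0.04) in Villin-Cre mice. For genotype they were Col18a1 (-0.018 to 0.049) and Col6a5 (-0.073 to 0.087) in ileum and Col14a1 (-0.021 to 0.027) in liver. For GW3965 in the liver they were Col16a1 (-0.237 to 0.006) and Col6a2 (-0.262 to 0.049) in floxed, and Col4a1 (-0.002 to 0.031) and Col8a1 (-0.17 to 0.206) in Villin-Cre mice. For the interaction they were Col6a2 (-0.473 to 0.004) and Col7a1 (-0.26 to 0.012) in ileum and Col13a1 (-0.234 to 0.005), Col16a1 (-0.169 to 0.074) and Col6a2 (-0.307 to 0.004) in liver, and between tissues Col15a1 (-0.126 to 0.387, floxed) and Col14a1 (-0.03 to 0.121, Villin-Cre). Depth limits the genes under 0.5 CPM, which were not tested.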
